A study of Mus musculus with 16 samples.

Results

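The 41 genes described here are imprinted genes of the mouse, given by symbol and grouped by imprinted cluster, and all 41 were found among the 22375 genes of the deposited count tables. Of them 21 lie on chromosome 7, 3 on chromosome 11 and 17 on other chromosomes. An imprinted gene is transcribed mainly from the copy inherited from the father or from the mother. The choice is set by DNA methylation that a parent's germ cells place on a control region and that the early embryo and embryonic stem (ES) cells have to copy at each division. Many imprinted genes act on fetal growth, placenta or brain, and their dosage in ES cell lines is known to drift in culture. Cfp1, encoded by Cxxc1, binds unmethylated CpG and is part of a complex that methylates lysine 4 of histone H3.

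RNA was sequenced from ES cells of strain 129/OLA in 4 groups with 2 biological replicates each. The groups were WT cells (line E14Tg2a) without treatment, WT cells with doxorubicin, Cfp1-/- cells without treatment and Cfp1-/- cells with doxorubicin, a DNA damaging agent, for 6 h. The treatment protocol gives 1 μM, whereas the treatment field of the sample labels gives a concentration in mM. All cells were grown in serum and LIF on gelatin without a feeder layer being mentioned. Each genotype is 1 cell line, so Cfp1 loss cannot be told apart from other differences between the lines, and whether the Cfp1-/- line is 1 clone is not given in the sources used here. The labels do not say whether the biological replicates came from separate cultures, so p-values measure the spread between these samples.

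Total counts per biological replicate ranged from 14880589 to 29422711. Cxxc1 had 807 to 1199 normalized counts in the 4 WT libraries and 0.964 to 5.11 in the 4 Cfp1-/- libraries. The 10 ES cell markers summed to 71730 to 97946 normalized counts in untreated WT cells and 84116 to 85122 in untreated Cfp1-/- cells, and to 27609 to 37770 and 32390 to 40264 after doxorubicin. Fibroblast markers summed to 205 to 237 and 61 to 62 in untreated WT and Cfp1-/- cells and to 351 to 512 and 298 to 349 after doxorubicin. Endoderm markers summed to 25 to 45 and 28 to 57 in untreated WT and Cfp1-/- cells and to 41 to 57 and 69 to 100 after doxorubicin. Over all libraries mesoderm markers summed to 111 to 416, trophoblast markers to 86 to 315 and neural markers to 913 to 2720. The part of other cell types in the results was not tested. The second sequencing run of replicate 1 of treated Cfp1-/- cells differed from the first run beyond sampling noise, with a chi-square of 42.9 per degree of freedom, as did that of treated WT cells with 9.61. The other 6 pairs of runs gave 0.998 to 1.05. A normalized count is the sum of the reads of a biological replicate on the exons of a gene, divided by a size factor. Changes are log2 fold changes ± standard error (SE) from edgeR's quasi-likelihood test with n = 2 in each group. A gene is called where the Benjamini-Hochberg adjusted p over 15758 tested genes is under 0.05, and it is written below as the edgeR adjusted p. In untreated Cfp1-/- cells 3 of the 10 ES cell markers were called higher (Nanog, Utf1 and Fgf4) and 3 lower (Pou5f1, Zfp42 and Tdgf1). Over all tested genes 17.9% were called higher and 16.1% lower. Of the 41 genes 40 passed the filter on low counts. The exception was Ins2, an insulin gene, with 0 counts in all 8 libraries, which allows up to 3 counts in each.

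Imprinted control regions are recognised when methylated by ZFP57, a zinc finger protein that binds the hexamer TGCCGC. RefSeq start site windows of 300 bases (250 before and 50 after the start, GRCm38.p6) were available for 35 of the 41 genes. The hexamer occurred on either strand in the windows of 11 of them, or 31.4%, against 13.1% of 27025 genes. A gene was counted if any of its windows held the hexamer. The 35 genes had 55 windows and the 27025 genes 32851, so the shares rest on unequal numbers of windows per gene. The hexamer itself holds a CpG. The median of the highest CpG count per gene was 17 in these windows and 8 over all genes. A stretch of 30 bases that holds the hexamer is printed for the 11 genes that have it, except Commd1, Copg2 and Snrpn. It is 1 of several for Nap1l5 and Mest. Stretches run 5′ to 3′ on the gene's strand, with the hexamer or its reverse complement in capitals.
Plagl1, chr10:13090730-13090759, plus strand: ctggcgtgttgcGCGGCAaagcccacggca
Nnat, chr2:157560093-157560122, plus strand: gccaccggggctGCGGCAttgcgcccagca
Nap1l5, chr6:58907133-58907162, minus strand: cagccattcactTGCCGCgagccgcgaagc
Grb10, chr11:12037379-12037408, minus strand: gggtgcggggagGCGGCAggaagggaaggg
Igf2, chr7:142661224-142661253, minus strand: tacggtgtcccaGCGGCAgcacagattttg
Zim1, chr7:6696435-6696464, minus strand: gaaagtcatcccGCGGCAttccactccggg
Osbpl5, chr7:143740403-143740432, minus strand: gggttttgcgtcTGCCGCgctctcctccct
Mest, chr6:30737971-30738000, plus strand: aggaggggcgctGCGGCAggatgggcgggt
Between the untreated lines, Plagl1, Nnat, Nap1l5 and Snrpn were higher, Grb10, Igf2 and Osbpl5 lower, and Zim1, Mest, Commd1 and Copg2 not called. By their RefSeq starts Peg3 and Usp29 begin 164 bases apart on opposite strands, so that their windows share 263 bases. Neither window holds the hexamer. The Usp29 model that was counted, chr7:6913871-6916480 of NCBIm37, does not begin next to Peg3 at chr7:6656603-6683132. Counts of Usp29 therefore do not cover that RefSeq start. The hexamer was also absent for Sfmbt2, which fell most between the untreated lines, and Magel2, which rose most with doxorubicin in WT cells. It was absent for Th and Slc22a18 too. The windows lie at start sites and were not matched to the imprinted control regions. The hexamer's presence or absence in a window therefore does not show whether a control region holds it. DNA methylation and binding of ZFP57 were not measured here.

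Without treatment, 19 of the 40 tested imprinted genes differed between Cfp1-/- and WT cells, 13 higher and 6 lower. Over all 15758 genes, 17.9% were called higher and 16.1% lower. The gene that rose most was Plagl1, from a mean of 11.6 to 1141 normalized counts, and the gene that fell most was Sfmbt2, from 5737 to 501. With doxorubicin in both lines 15 genes were higher and 4 lower in Cfp1-/- cells, against 15.1% and 10.8% of all genes. When the libraries were scaled by their totals alone, the split without treatment was 16 higher and 4 lower, the median of all genes moving from 0.01 to 0.20 on the log2 scale.

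**Figure D1:**
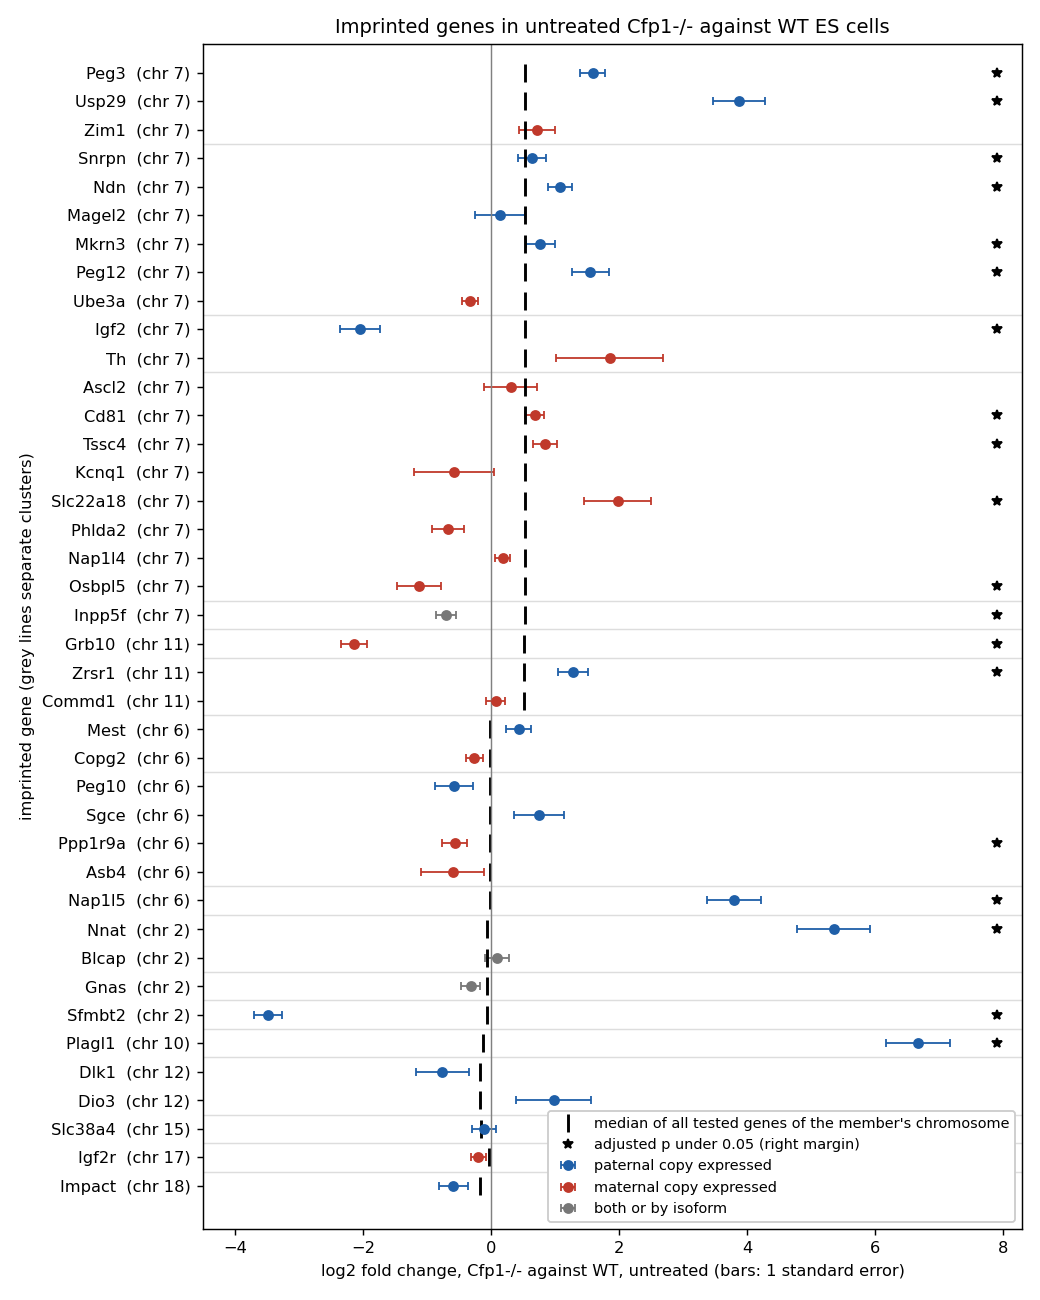
Log2 fold change of untreated Cfp1-/- against WT cells for the 40 tested imprinted genes, ordered by cluster, with bars of 1 SE, black ticks at the median of all tested genes of the same chromosome, and a star where the adjusted p is under 0.05. Plagl1 at 6.67 and Nnat at 5.35 lie far to the right, and Sfmbt2 at -3.49 far to the left.

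Genes were split by the parental copy they are known to express in at least some tissue. Of the 20 tested genes that are paternally expressed, 10 were higher and 2 lower in untreated Cfp1-/- cells, with a median log2 fold change of 0.76. Of the 17 maternally expressed genes, 3 were higher and 3 lower, with a median of -0.20, and the median of all tested genes was 0.01. With doxorubicin in both lines, 9 paternally expressed genes were higher and 2 lower with a median of 0.65, and 6 maternally expressed genes were higher and 1 lower with a median of 0.26. The shares of all genes with doxorubicin were 15.1% higher and 10.8% lower. Chromosome 7, where 5 of these 9 and all 6 lie, had 33.9% called higher with doxorubicin. For comparison, 17.9% of all genes and 38.6% of those of chromosome 7, where 6 of the 10 lie, were called higher without treatment, and 16.1% of all genes lower. Relative to the chromosome median, 8 paternally expressed genes were higher and 2 lower without treatment with a median of 0.50, and none of the maternally expressed genes was higher and 4 were lower with a median of -0.35, against 15.1% and 14.8% of all genes. With doxorubicin the classes lay closer on this measure. Of paternally expressed genes 4 were higher and 2 lower with a median of 0.20. Of maternally expressed genes 2 were higher and 2 lower with a median of 0.02, against 11.4% and 9.35% of all genes. The difference between the classes was not tested, and which copy the reads came from was not measured.

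Plagl1, Nnat and Nap1l5, which are paternally expressed genes on chromosomes 10, 2 and 6, had few reads in WT cells and more in all Cfp1-/- libraries. Plagl1 (ENSMUSG00000019817, chr10:12810497-12851500 of NCBIm37) encodes a zinc finger transcription factor that restrains growth. It had 7.64 and 15.6 normalized counts in untreated WT cells and 3.93 and 25.3 in treated WT cells. In Cfp1-/- cells it had 1325 and 957 without and 1131 and 924 with doxorubicin. All 4 Cfp1-/- libraries were far above all 4 WT libraries. The log2 fold change was 6.67 ± 0.50 without treatment (edgeR adjusted p = 5.04e-05) and 6.07 ± 0.49 with doxorubicin (edgeR adjusted p = 0.000126). Doxorubicin did not move it past the threshold in either line, with changes of 0.49 ± 0.66 and -0.11 ± 0.35.

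Nnat (ENSMUSG00000067786, chr2:157385814-157388258) encodes neuronatin, a small membrane protein of neural tissue, and lies inside an intron of Blcap on the other strand. Nnat had 11 and 18.8 normalized counts in untreated WT cells, 10.5 and 33.8 in treated WT cells, 393 and 787 in untreated Cfp1-/- cells and 270 and 507 in treated Cfp1-/- cells. The lines did not overlap, and the log2 fold changes were 5.35 ± 0.58 (edgeR adjusted p = 0.000259) and 4.10 ± 0.55 (edgeR adjusted p = 0.00123). The host Blcap had 450 ± 63.4 (SD) normalized counts in untreated WT cells and 470 ± 13.6 in untreated Cfp1-/- cells, a log2 fold change of 0.09 ± 0.19 that was not called. The libraries were counted by strand, so reads of Nnat and Blcap were kept apart.

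Nap1l5 (ENSMUSG00000055430, chr6:58855228-58857120) is an intronless gene of the nucleosome assembly protein family. It had 4.25 and 3.13 normalized counts in untreated WT cells, 3.93 and 5.28 in treated WT cells, 52.8 and 52.4 in untreated Cfp1-/- cells and 91.9 and 106 in treated Cfp1-/- cells. The log2 fold changes between the lines were 3.80 ± 0.42 (edgeR adjusted p = 0.000295) and 4.40 ± 0.42 (edgeR adjusted p = 0.000261). Its host gene Herc3 on the other strand had -0.33 ± 0.15 without treatment and was not called. Nap1l5 also rose with doxorubicin in Cfp1-/- cells, by 0.95 ± 0.31 (edgeR adjusted p = 0.0272). That call was lost without any 1 of the 4 Cfp1-/- libraries (0.85 to 1.03, edgeR adjusted p of 0.0766 to 0.149), without the second run of replicate 1 of treated cells and with DESeq2.

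**Figure D2:**
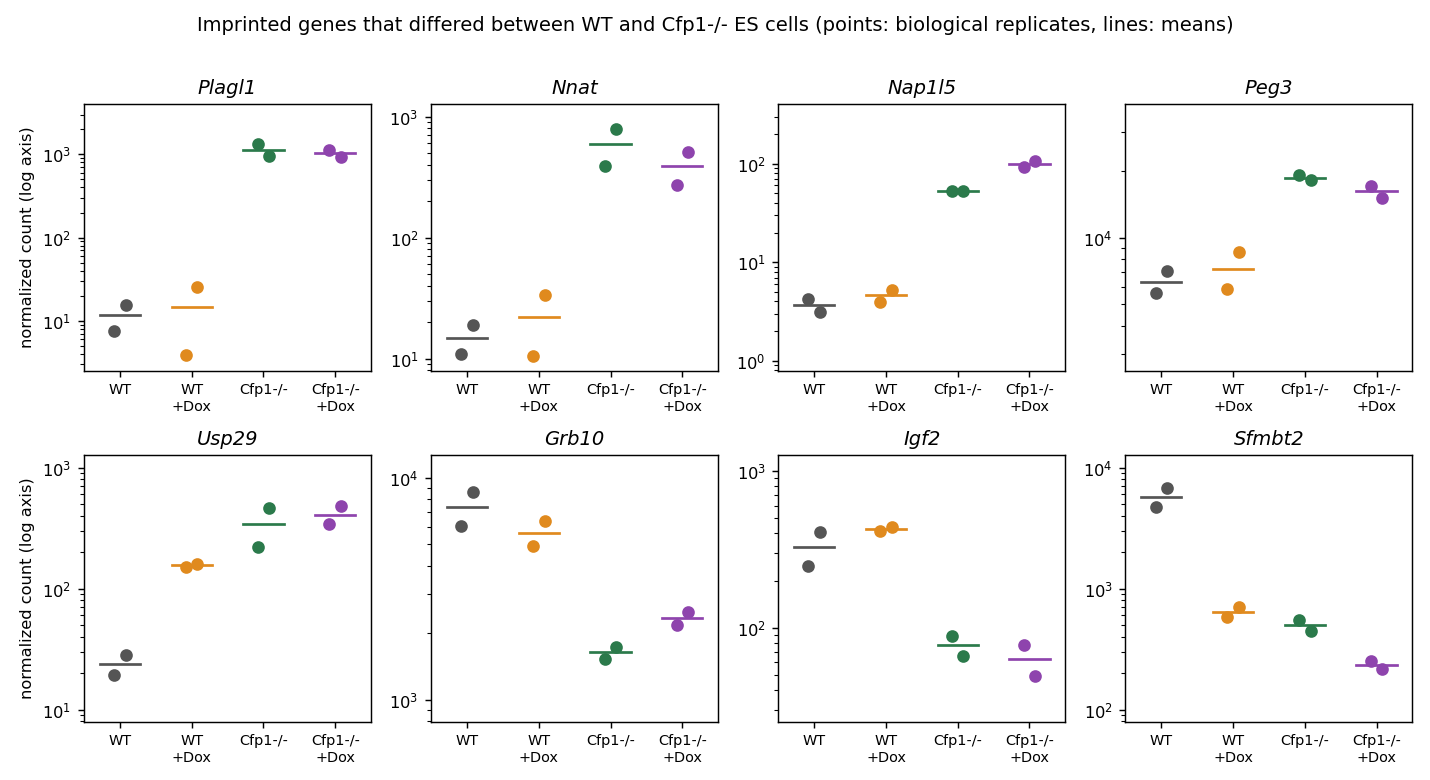
Normalized counts on log axes of 8 imprinted genes in the 4 groups, with a point for each of the 2 biological replicates and a line at their mean. Plagl1, Nnat, Nap1l5 and Peg3 were higher in all Cfp1-/- than in all WT libraries, Grb10 and Igf2 were lower, and Sfmbt2 in treated WT cells (579 and 705) came close to its level in untreated Cfp1-/- cells (552 and 450).

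Sfmbt2 and Grb10 were the abundant imprinted genes that fell most in Cfp1-/- cells. Sfmbt2 (ENSMUSG00000061186, chr2:10292137-10516880), paternally expressed, encodes a polycomb-related protein needed in the trophoblast. Sfmbt2 had 4698 and 6776 normalized counts in untreated WT cells, 579 and 705 in treated WT cells, 552 and 450 in untreated Cfp1-/- cells and 251 and 216 in treated Cfp1-/- cells. Untreated WT cells stood apart from the 3 other groups. The log2 fold change between the lines was -3.49 ± 0.22 without treatment (edgeR adjusted p = 1.6e-05) and -1.43 ± 0.21 with doxorubicin (edgeR adjusted p = 0.00187).

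Grb10 (ENSMUSG00000020176, chr11:11830511-11938686) encodes an adaptor that restrains insulin and IGF signalling and is maternally expressed outside the brain. Grb10 had 6048 and 8658 normalized counts in untreated WT cells, 4921 and 6393 in treated WT cells, 1529 and 1732 in untreated Cfp1-/- cells and 2172 and 2488 in treated Cfp1-/- cells. It was lower in Cfp1-/- cells, at -2.14 ± 0.20 without (edgeR adjusted p = 0.000136) and -1.26 ± 0.19 with doxorubicin (edgeR adjusted p = 0.00231). This was the opposite direction to most genes of chromosome 11. With doxorubicin Grb10 rose in Cfp1-/- cells by 0.56 ± 0.19 (edgeR adjusted p = 0.0363), a call that was lost without any 1 of the 4 Cfp1-/- libraries (0.46 to 0.63, edgeR adjusted p of 0.0661 to 0.175), and its change in WT cells was -0.33 ± 0.19 and not called.

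Chromosomes 7 and 11 were raised as a whole in the Cfp1-/- line, so the 24 imprinted genes on them were also compared with the other genes of their chromosome. The median log2 fold change of the 1283 tested genes of chromosome 7 was 0.53 without and 0.47 with doxorubicin, and that of the 1279 genes of chromosome 11 was 0.51 in both. Medians were also taken from the normalized counts of samples of equal replicate number, less the median of all tested genes. Those of chromosome 7 were 0.493 and 0.497 in replicates 1 and 2 without treatment and 0.458 and 0.423 with doxorubicin. Those of chromosome 11 were 0.496 and 0.466 without and 0.489 and 0.475 with doxorubicin. In the edgeR fit, the medians of the other autosomes and X lay between -0.25 and 0.29. On chromosome 7, 38.6% of the tested genes were called higher without treatment, and on chromosome 11 40.8%. DNA copy number was not measured, and its part in these medians was not tested.

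**Figure D3:**
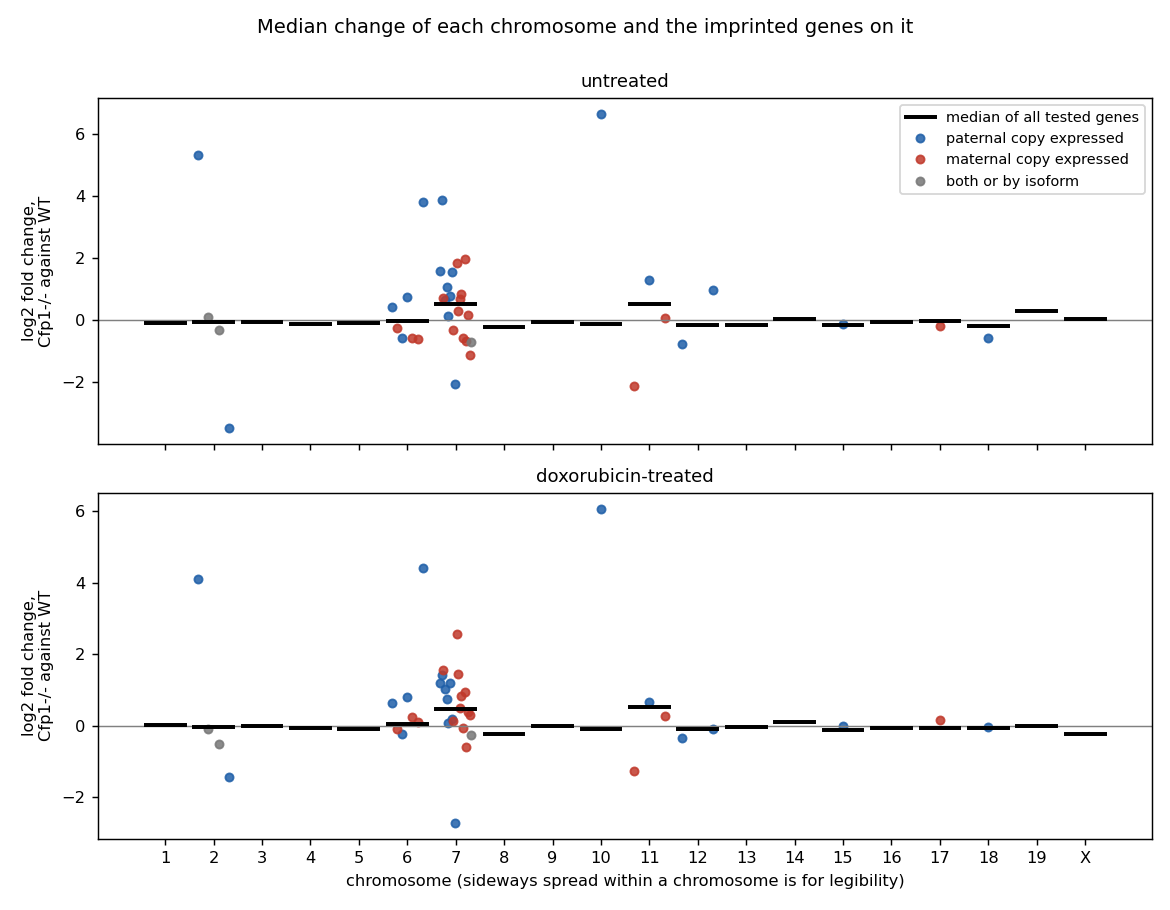
Log2 fold change of Cfp1-/- against WT cells by chromosome, without treatment above and with doxorubicin below, with a black bar at the median of all tested genes of a chromosome (Y, with 8 tested genes, is not drawn) and a point for each imprinted gene, coloured by the parental copy it expresses. The bars of chromosomes 7 and 11 lie near 0.5, and the imprinted genes on them spread from -2.73 to 3.87.

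The raised level was not even along chromosome 11. Without treatment, the windows of 10 Mb between 10 and 50 Mb, which hold Grb10, Zrsr1 and Commd1, had medians of 0.03 to 0.24. Without treatment, the 20 tested neighbours of Grb10 within 5 Mb had a median of 0.37 and the 34 of Zrsr1 a median of 0.08. On chromosome 7 the neighbours of the Peg3 domain had 0.59 to 0.63 without treatment, those of the Prader-Willi and Angelman domain 0.23 to 0.51 and those of the Igf2 and Kcnq1 domains 0.70 to 0.71. With doxorubicin the last were at 0.45 to 0.51. The neighbours of Dlk1 and Dio3 on distal chromosome 12 were lower in untreated Cfp1-/- cells, with medians of -0.74 over 80 genes and -0.78 over 75 genes.

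Relative to the median of their own chromosome, 8 of the 40 imprinted genes were higher and 7 lower in untreated Cfp1-/- cells, against 15.1% and 14.8% of all genes under the same test. Higher were Peg3, Usp29, Ndn, Peg12, Zrsr1, Nap1l5, Nnat and Plagl1, which are all paternally expressed. Lower were Ube3a, Phlda2, Osbpl5 and Grb10, which are maternally expressed, Igf2 and Sfmbt2, which are paternally expressed, and Inpp5f, whose imprinting depends on the isoform. With doxorubicin 6 were higher (Peg3, Zim1, Th, Nap1l5, Nnat and Plagl1) and 5 lower (Igf2, Phlda2, Inpp5f, Grb10 and Sfmbt2), against 11.4% and 9.35% of all genes. With the replicate number as a block, 18 genes in place of 11 were called relative to their chromosome with doxorubicin. Against the median of genes within 5 Mb in place of the whole chromosome, 9 were higher and 8 lower without treatment, and 7 were higher and 6 lower with doxorubicin.

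Of the 3 genes of the Peg3 domain on proximal chromosome 7, 2 were higher than their chromosome without treatment (Peg3 and Usp29) and 2 with doxorubicin (Peg3 and Zim1), against 15.1% and 11.4% of all genes. Peg3 (ENSMUSG00000002265, chr7:6656603-6683132), a paternally expressed zinc finger gene, had 5604 and 7059 normalized counts in untreated WT cells, 5872 and 8607 in treated WT cells, 19104 and 18165 in untreated Cfp1-/- cells and 17139 and 15123 in treated Cfp1-/- cells. All Cfp1-/- libraries were above all WT libraries. Peg3 was higher by 1.59 ± 0.19 without treatment (edgeR adjusted p = 0.000478) and by 1.06 ± 0.19 relative to chromosome 7 (edgeR adjusted p = 0.0036). With doxorubicin the values were 1.18 ± 0.19 (edgeR adjusted p = 0.00285) and 0.71 ± 0.19 (edgeR adjusted p = 0.0265). The last call was lost without replicate 1 of treated WT cells (0.42, edgeR adjusted p = 0.152) or without either replicate of treated Cfp1-/- cells (0.63 and 0.79, edgeR adjusted p = 0.124 and 0.0797).

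Usp29 (ENSMUSG00000051527, chr7:6913871-6916480), a deubiquitinase gene expressed from the paternal copy, had 19.5 and 28.1 normalized counts in untreated WT cells, 152 and 161 in treated WT cells, 219 and 461 in untreated Cfp1-/- cells and 341 and 477 in treated Cfp1-/- cells. Untreated WT cells were below the 3 other groups. The difference between the lines was 3.87 ± 0.40 without treatment (edgeR adjusted p = 0.000227) and 1.41 ± 0.34 with doxorubicin (edgeR adjusted p = 0.016). Relative to chromosome 7 it was at 3.34 ± 0.40 without treatment (edgeR adjusted p = 0.000483) and at 0.95 ± 0.34 with doxorubicin, which was not called (edgeR adjusted p = 0.0776). The call with doxorubicin was lost without replicate 1 or 2 of treated WT cells or replicate 2 of treated Cfp1-/- cells (1.16 to 1.45, edgeR adjusted p of 0.0598 to 0.108).

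Zim1 (ENSMUSG00000002266, chr7:6628154-6649161), a zinc finger gene expressed from the maternal copy, had 46.7 and 37.5 normalized counts in untreated WT cells, 456 and 373 in treated WT cells, 86.2 and 50.7 in untreated Cfp1-/- cells and 1145 and 1245 in treated Cfp1-/- cells. It differed between the lines by 0.72 ± 0.29 without treatment (0.19 relative to chromosome 7), neither of which was called, and by 1.55 ± 0.24 with doxorubicin (edgeR adjusted p = 0.00227). Relative to chromosome 7 the latter was 1.09 ± 0.24 (edgeR adjusted p = 0.012), a call that was lost without replicate 2 of treated WT cells or either replicate of treated Cfp1-/- cells (0.93 to 1.16, edgeR adjusted p of 0.0527 to 0.0905).

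The Prader-Willi and Angelman domain of chromosome 7 holds paternally expressed genes, among them those lost in Prader-Willi syndrome, and the maternally expressed Ube3a, the Angelman syndrome gene. Of its 6 genes 4 were higher and none was lower in untreated Cfp1-/- cells, against 17.9% and 16.1% of all genes and 38.6% of chromosome 7 called higher. Relative to the chromosome 2 were higher and 1 was lower without treatment, against 15.1% and 14.8% of all genes under the same test. None was called with doxorubicin on this measure, against 11.4% higher and 9.35% lower of all genes. Ndn (ENSMUSG00000033585, chr7:69493163-69494814), which encodes the MAGE protein necdin, had 167 and 204 normalized counts in untreated WT cells and 372 and 400 in untreated Cfp1-/- cells, and 329 and 359 against 588 and 536 with doxorubicin. It was higher in Cfp1-/- cells by 1.08 ± 0.19 (edgeR adjusted p = 0.00232) and 0.73 ± 0.18 (edgeR adjusted p = 0.017). Its 0.56 ± 0.18 above the chromosome median without treatment (edgeR adjusted p = 0.0463) was lost without any 1 of the 8 libraries (0.41 to 0.69, edgeR adjusted p of 0.0538 to 0.24). Its call with doxorubicin was lost without any 1 of the 4 treated libraries (0.65 to 0.81, edgeR adjusted p of 0.0554 to 0.102).

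Peg12 (ENSMUSG00000070526, chr7:69606757-69609396), an intronless gene of the FRAT family of GSK3 binding proteins, had 68.8 and 76.1 normalized counts in untreated WT cells, 24.9 and 39.1 in treated WT cells, 220 and 198 in untreated Cfp1-/- cells and 32.7 and 38.6 in treated Cfp1-/- cells. The lines differed by 1.55 ± 0.29 without treatment (edgeR adjusted p = 0.00333). With doxorubicin the libraries of the lines overlapped and the difference was 0.17 ± 0.33, which was not called. Relative to chromosome 7 the difference without treatment was 1.03 ± 0.29 (edgeR adjusted p = 0.0234), a call that was lost without any 1 of the 4 untreated libraries (0.95 to 1.13, edgeR adjusted p of 0.0631 to 0.112).

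Snrpn (ENSMUSG00000000948, chr7:67127388-67285105), which encodes a core protein of the spliceosome, had 4998 and 6750 normalized counts in untreated WT cells and 8218 and 9715 in untreated Cfp1-/- cells. Its difference of 0.64 ± 0.21 (edgeR adjusted p = 0.0441) was close to the chromosome median, from which it deviated by 0.11 ± 0.21. This call was lost with DESeq2's size factors and without 5 of the 8 libraries, namely WT replicate 1 and both Cfp1-/- replicates without treatment and both Cfp1-/- replicates with doxorubicin (0.45 to 0.77, edgeR adjusted p of 0.0612 to 0.222). Mkrn3, a RING finger gene of the makorin family, had 152 and 129 normalized counts in untreated WT and 210 and 262 in untreated Cfp1-/- cells. It was 0.77 ± 0.23 higher (edgeR adjusted p = 0.0275) and 0.25 ± 0.23 above the chromosome median, which was not called. The call on Mkrn3 was lost without untreated WT replicate 1 or 2 or untreated Cfp1-/- replicate 2 (0.62 to 0.91, edgeR adjusted p of 0.0529 to 0.159). With doxorubicin Snrpn was 1.03 ± 0.22 higher and Mkrn3 1.18 ± 0.24 higher in Cfp1-/- cells (edgeR adjusted p = 0.00864 and 0.00802), and these calls were lost without replicate 2 and replicate 1 of treated Cfp1-/- cells, respectively (edgeR adjusted p = 0.057 and 0.051).

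Magel2, another MAGE gene, differed by 0.14 ± 0.39 without treatment and was not called. Ube3a (ENSMUSG00000025326, chr7:66484122-66562097), a ubiquitin ligase gene, had 10625 and 10689 normalized counts in untreated WT cells and 7852 and 8797 in untreated Cfp1-/- cells. Its change of -0.33 ± 0.12 was not called by itself, but it lay at -0.86 ± 0.13 against the median of chromosome 7 (edgeR adjusted p = 0.00134). With doxorubicin Ube3a was at 0.13 ± 0.12 between the lines and at -0.34 ± 0.12 against the chromosome median, neither of which was called.

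On distal chromosome 7, Igf2 (ENSMUSG00000048583, chr7:149836673-149852721), the paternally expressed fetal growth factor, fell against its chromosome. It had 249 and 408 normalized counts in untreated WT cells, 417 and 437 in treated WT cells, 89.0 and 65.9 in untreated Cfp1-/- cells and 77.6 and 49.2 in treated Cfp1-/- cells. The lines did not overlap. The log2 fold changes were -2.05 ± 0.32 without (edgeR adjusted p = 0.00146) and -2.73 ± 0.33 with doxorubicin (edgeR adjusted p = 0.000773), and -2.58 ± 0.32 and -3.19 ± 0.33 relative to chromosome 7. The neighbouring Th, which encodes tyrosine hydroxylase of catecholamine synthesis, had 1.7 and 1.04 normalized counts in untreated WT cells and 3.71 and 6.76 in untreated Cfp1-/- cells, and 19.6 and 9.51 against 66.4 and 102 with doxorubicin. With doxorubicin Th was higher in Cfp1-/- cells by 2.57 ± 0.48 (edgeR adjusted p = 0.00489) and by 2.11 ± 0.47 relative to chromosome 7 (edgeR adjusted p = 0.0136). The latter call was lost without replicate 2 of treated WT or of treated Cfp1-/- cells (1.64 and 1.75, edgeR adjusted p = 0.0952 and 0.115).

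The Kcnq1 domain, a set of genes expressed from the maternal copy mostly in the placenta, was not raised beyond chromosome 7 by any called gene. Of its 8 genes 3 were higher and 1 lower in untreated Cfp1-/- cells, against 17.9% and 16.1% of all genes and 38.6% of chromosome 7 called higher. Relative to the chromosome none was higher and 2 were lower, against 15.1% and 14.8% of all genes. Cd81 (ENSMUSG00000037706), a tetraspanin gene, had 2153 and 2177 normalized counts in untreated WT and 3773 and 3034 in untreated Cfp1-/- cells, a difference of 0.68 ± 0.14 (edgeR adjusted p = 0.00613). Tssc4 (ENSMUSG00000045752) had 219 and 255 against 388 and 446, a difference of 0.84 ± 0.18 (edgeR adjusted p = 0.00689). Slc22a18, an organic cation transporter gene, had 2.55 and 5.21 against 13.9 and 16.1, a difference of 1.98 ± 0.52 (edgeR adjusted p = 0.0165), which was lost without untreated WT replicate 1 (1.54, edgeR adjusted p = 0.11) or untreated Cfp1-/- replicate 2 (1.88, edgeR adjusted p = 0.0675). Relative to the chromosome, Cd81 was at 0.15 ± 0.14, Tssc4 at 0.32 ± 0.18 and Slc22a18 at 1.46 ± 0.53 (edgeR adjusted p = 0.0625), none of which was called.

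Osbpl5 (ENSMUSG00000037606, chr7:150874667-150942890), an oxysterol binding protein gene, was lower in untreated Cfp1-/- cells, with 51.8 and 88.6 normalized counts in WT against 27.8 and 34.6 in Cfp1-/- cells. The difference was -1.13 ± 0.34 (edgeR adjusted p = 0.0298) and -1.65 ± 0.34 relative to chromosome 7 (edgeR adjusted p = 0.00673). The first call was lost without untreated WT replicate 2 (-0.70, edgeR adjusted p = 0.201), untreated Cfp1-/- replicate 1 (-0.96, edgeR adjusted p = 0.161) or untreated Cfp1-/- replicate 2 (-1.29, edgeR adjusted p = 0.0717), and the second without untreated Cfp1-/- replicate 1 (-1.48, edgeR adjusted p = 0.0587).

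Phlda2 (ENSMUSG00000010760, chr7:150687450-150688446), which restrains growth of the placenta, had 358 and 306 normalized counts in untreated WT cells, 253 and 371 in treated WT cells, 173 and 234 in untreated Cfp1-/- cells and 184 and 219 in treated Cfp1-/- cells. Relative to its chromosome it was at -1.21 ± 0.25 (edgeR adjusted p = 0.00686) and, with doxorubicin, -1.07 ± 0.25 (edgeR adjusted p = 0.0165). The plain differences of -0.68 ± 0.25 and -0.61 ± 0.25 were not called. The first of these calls was lost without untreated Cfp1-/- replicate 1 (-0.97, edgeR adjusted p = 0.0685), and the second without treated WT replicate 2 or either treated Cfp1-/- replicate (-1.22 to -0.79, edgeR adjusted p of 0.0677 to 0.111).

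Ascl2, a transcription factor gene of the trophoblast, had 17 and 35.4 normalized counts in untreated WT cells, 38.0 and 41.2 in treated WT cells, 25.0 and 38.0 in untreated Cfp1-/- cells and 111 and 102 in treated Cfp1-/- cells. Between the lines it was at 0.31 ± 0.41 without treatment, which was not called, and was 1.45 ± 0.39 higher in Cfp1-/- cells with doxorubicin (edgeR adjusted p = 0.0238), a call that was lost without any 1 of the 4 treated libraries (1.37 to 1.52, edgeR adjusted p of 0.085 to 0.107). With doxorubicin Cd81 was higher by 0.49 ± 0.14, Tssc4 by 0.83 ± 0.18 and Nap1l4, a histone chaperone gene, by 0.38 ± 0.12 (edgeR adjusted p = 0.0332, 0.0106 and 0.0475). The call on Nap1l4 was lost without any 1 of the 8 libraries (0.30 to 0.44, edgeR adjusted p of 0.0621 to 0.21). That on Cd81 was lost without 6 of them, all but the untreated Cfp1-/- replicates (0.39 to 0.57, edgeR adjusted p of 0.0589 to 0.168), and that on Tssc4 without treated Cfp1-/- replicate 1 (0.75, edgeR adjusted p = 0.069). Kcnq1, a potassium channel gene with 4 to 18 counts per library, was not called between the lines.

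Inpp5f (ENSMUSG00000042105, chr7:135754842-135839939), an inositol phosphatase gene, had 1451 and 1432 normalized counts in untreated WT and 741 and 997 in untreated Cfp1-/- cells. It was lower, at -0.70 ± 0.16 (edgeR adjusted p = 0.00858) and at -1.23 ± 0.16 relative to chromosome 7 (edgeR adjusted p = 0.000774). The first call was lost without untreated Cfp1-/- replicate 1 (-0.48, edgeR adjusted p = 0.078). With doxorubicin it lay at -0.73 ± 0.16 against the chromosome (edgeR adjusted p = 0.0118), which was lost without treated Cfp1-/- replicate 1 (-0.60, edgeR adjusted p = 0.0921).

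On chromosome 11 the paternally expressed retrogene Zrsr1 (ENSMUSG00000044068, chr11:22873215-22876498), a splicing factor gene, lies in an intron of the maternally expressed Commd1 on the other strand. Zrsr1 had 364 and 303 normalized counts in untreated WT cells, 523 and 384 in treated WT cells, 936 and 651 in untreated Cfp1-/- cells and 756 and 640 in treated Cfp1-/- cells. It was higher in untreated Cfp1-/- cells by 1.28 ± 0.24 (edgeR adjusted p = 0.00328), and by 0.65 ± 0.23 with doxorubicin, which was not called. Commd1, a gene of copper metabolism, had 1191 and 1459 against 1264 and 1454 normalized counts without treatment, a difference of 0.07 ± 0.15, and 1031 and 1196 against 1298 and 1325 with doxorubicin. Relative to chromosome 11 Zrsr1 was 0.76 ± 0.23 higher (edgeR adjusted p = 0.0342). That call was lost without 5 libraries, namely either untreated WT replicate, untreated Cfp1-/- replicate 1 or either treated Cfp1-/- replicate (0.53 to 0.87, edgeR adjusted p of 0.0515 to 0.185).

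Of the 17 imprinted genes on the other chromosomes, 3 were called higher (Plagl1, Nnat and Nap1l5) and 2 lower (Sfmbt2 and Ppp1r9a) between the untreated lines. The shares of all genes were 17.9% and 16.1%. Ppp1r9a (ENSMUSG00000032827), a maternally expressed gene of the neuronal scaffold protein neurabin, had 3754 and 3593 normalized counts in WT and 2593 and 2255 in Cfp1-/- cells, a difference of -0.57 ± 0.20 (edgeR adjusted p = 0.0474) that was lost without any 1 of the 4 untreated libraries (-0.66 to -0.47, edgeR adjusted p of 0.0965 to 0.207). Mest, a paternally expressed hydrolase gene, had 2123 and 2621 against 2745 and 3538 normalized counts, a difference of 0.43 ± 0.19 that was not called. With doxorubicin Mest was higher by 0.64 ± 0.20 (edgeR adjusted p = 0.0376), lost without treated WT replicate 1 or either treated Cfp1-/- replicate (0.41 to 0.64, edgeR adjusted p of 0.127 to 0.185). Gnas, the gene of the Gs alpha subunit, was lower, at -0.51 ± 0.15 with doxorubicin (edgeR adjusted p = 0.0358), lost without treated WT replicate 2 or either treated Cfp1-/- replicate (-0.61 to -0.38, edgeR adjusted p of 0.0733 to 0.188).

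The remaining genes were called in neither comparison of the lines. Peg10, a retrotransposon-derived gene needed in the placenta, had 15146 and 24777 normalized counts in untreated WT and 16068 and 10031 in untreated Cfp1-/- cells, so that the groups overlapped. Slc38a4, an amino acid transporter gene, had 10898 and 10573 against 10455 and 9068. Igf2r, the receptor that clears IGF2, had 5467 and 5736 against 4728 and 4820. Per kilobase of exon, Peg10, Snrpn and Slc38a4 were the highest of the 41 genes in untreated WT cells, with 2996, 2674 and 2664 normalized counts per kilobase. Impact, a regulator of translation, had 5599 and 6974 against 3288 and 4911, and Copg2, a coat protein gene, 2136 and 1844 against 1604 and 1652. Dlk1, a Notch ligand gene, had 32.3 and 20.8 against 14.8 and 16.1, a difference of -0.76 ± 0.41 that was close to the -0.74 of its neighbours. Sgce had 77 to 277 raw counts per library, Asb4 14 to 40 and Dio3 13 to 42.

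Doxorubicin changed 19 of the 40 genes in WT cells, 10 higher and 9 lower, against 26.5% and 21.8% of all genes. In Cfp1-/- cells 14 were higher and 7 lower, against 27.8% and 21.0%. The genes that rose in WT cells were Usp29, Zim1, Ndn, Magel2, Th, Cd81, Kcnq1, Slc22a18, Osbpl5 and Inpp5f, all 10 on chromosome 7, where 5 others fell. None of the 17 genes on chromosomes other than 7 and 11 rose in WT cells and 4 fell. The median of all tested genes of chromosome 7 was 0.18 in WT cells and 0.09 in Cfp1-/- cells. When the libraries were scaled by their totals alone, the split in WT cells was 16 higher and 5 lower, and the median of all genes moved from 0.06 to 0.37.

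**Figure D4:**
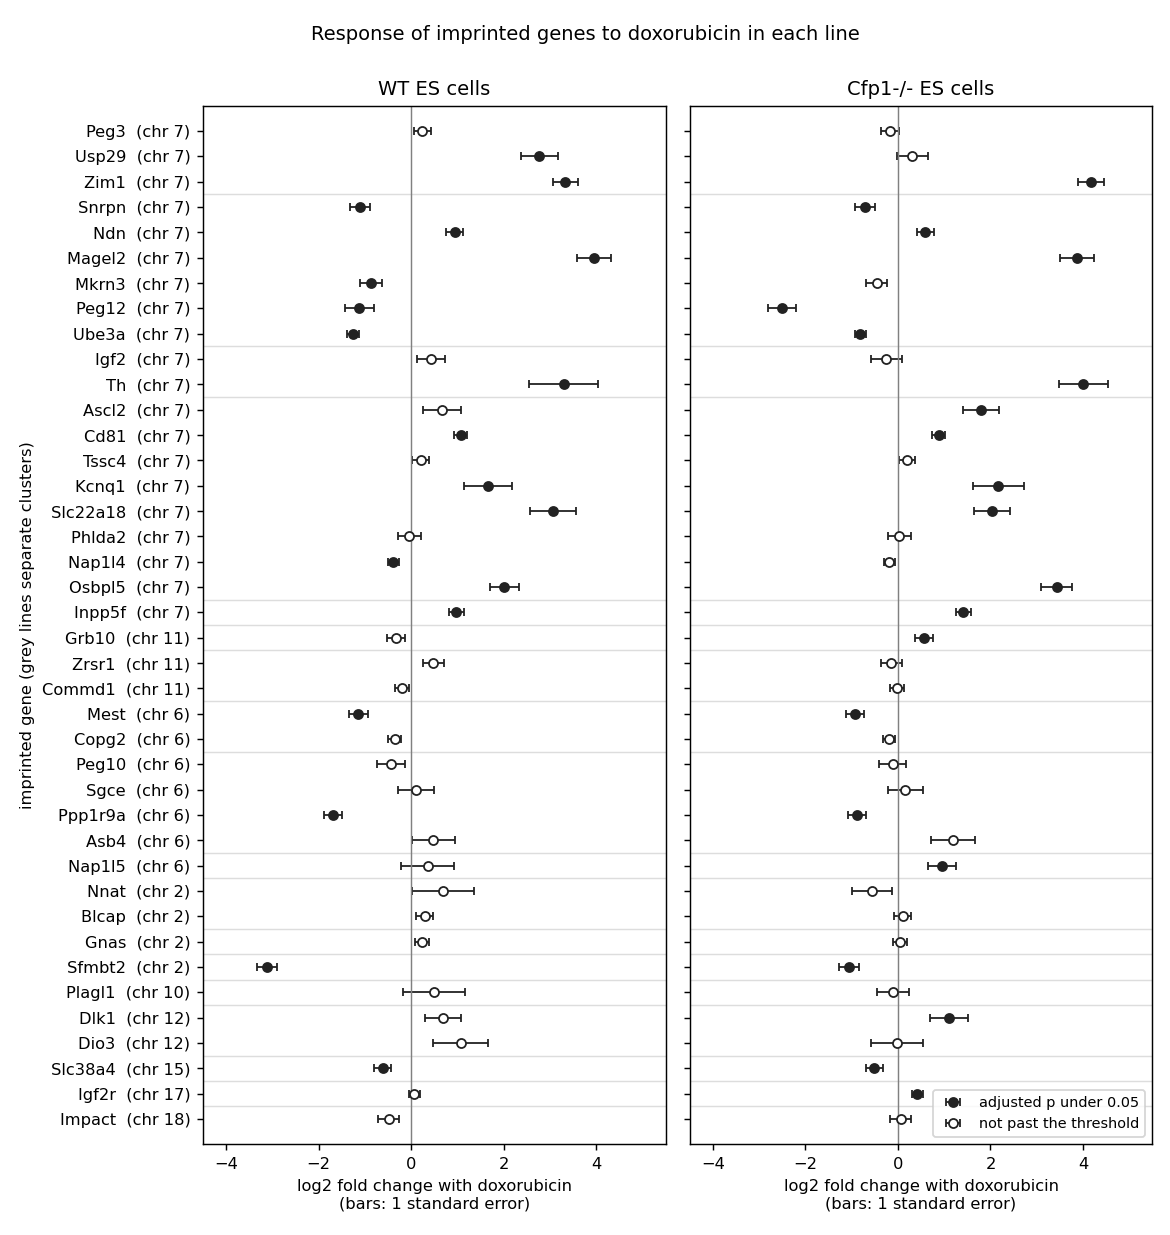
Log2 fold change with doxorubicin of the 40 tested imprinted genes in WT cells (left) and Cfp1-/- cells (right), with bars of 1 SE and filled points where the adjusted p is under 0.05. Magel2 rose by 3.95 and 3.87, Zim1 by 3.33 and 4.17 and Th by 3.29 and 4.01, and Usp29 was called in WT cells at 2.77 with 0.31 in Cfp1-/- cells.

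The genes that rose most came from different clusters of chromosome 7. Magel2 (ENSMUSG00000056972, chr7:69521865-69526526) had 27.2 and 43.8 normalized counts in untreated WT cells, 567 and 486 in treated WT cells, 22.2 and 53.2 in untreated Cfp1-/- cells and 506 and 577 in treated Cfp1-/- cells. All treated libraries were above all untreated ones. It rose by 3.95 ± 0.37 in WT (edgeR adjusted p = 3.46e-05) and 3.87 ± 0.37 in Cfp1-/- cells (edgeR adjusted p = 3.99e-05). Zim1, with its values given above, rose by 3.33 ± 0.28 (edgeR adjusted p = 1.9e-05) and 4.17 ± 0.27 (edgeR adjusted p = 7.33e-06). Not all neighbours moved with them. Peg3, next to Zim1, was called in neither line, at 0.24 ± 0.19 and -0.17 ± 0.19, and Mkrn3 and Peg12, next to Magel2, fell in WT cells.

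In the Prader-Willi and Angelman domain 2 genes rose and 4 fell in WT cells, against 26.5% and 21.8% of all genes. On chromosome 7, 30.1% of the tested genes rose. Ndn rose by 0.94 ± 0.19 (edgeR adjusted p = 0.00255) in WT cells and by 0.59 ± 0.18 in Cfp1-/- cells (edgeR adjusted p = 0.0222). Ube3a fell from 10657 ± 45.2 (SD) to 4300 ± 282 normalized counts in WT cells, by 1.26 on the log2 scale (edgeR adjusted p = 4.82e-05), and from 8325 ± 668 to 4623 ± 334 in Cfp1-/- cells (-0.81 ± 0.13, edgeR adjusted p = 0.000642). Snrpn fell from 5874 ± 1239 to 2649 ± 797 in WT cells (-1.10 ± 0.22, edgeR adjusted p = 0.00245) and from 8966 ± 1058 to 5332 ± 509 in Cfp1-/- cells (-0.71 ± 0.21, edgeR adjusted p = 0.0213). Peg12 fell by 1.12 ± 0.31 in WT (edgeR adjusted p = 0.015) and dropped by 2.5 ± 0.31 in Cfp1-/- cells (edgeR adjusted p = 0.000161). Mkrn3 fell in WT cells by 0.87 ± 0.24 (edgeR adjusted p = 0.0148), and its -0.46 ± 0.23 in Cfp1-/- cells was not called. The calls on Ndn and Snrpn in Cfp1-/- cells were lost without any 1 and without 3 of the 4 Cfp1-/- libraries, respectively (edgeR adjusted p of 0.0582 to 0.124 and, for all but untreated replicate 1, 0.0607 to 0.107). Those on Mkrn3 and Peg12 in WT cells were lost without treated replicate 1 (edgeR adjusted p = 0.0602 and 0.0939), and without untreated replicate 1 for Mkrn3 (0.0779) or 2 for Peg12 (0.0513).

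On distal chromosome 7 several genes that are expressed from the maternal copy rose in both lines. Th had 3 reads in all in the untreated WT libraries and 24 in the treated ones, a ratio of normalized counts of 9.99 with a counting interval at 95% of 3.03 to 51.8. It rose by 3.29 ± 0.74 in WT (edgeR adjusted p = 0.00518) and 4.01 ± 0.52 in Cfp1-/- cells (edgeR adjusted p = 0.000242). Slc22a18 had 34.1 and 29.6 normalized counts in treated WT cells and 52.1 and 67.5 in treated Cfp1-/- cells, and rose by 3.07 ± 0.50 (edgeR adjusted p = 0.000817) and 2.03 ± 0.40 (edgeR adjusted p = 0.00233). Osbpl5 reached 257 and 288 in treated WT cells and 262 and 393 in treated Cfp1-/- cells, a rise of 2.01 ± 0.32 (edgeR adjusted p = 0.000691) and 3.43 ± 0.34 (edgeR adjusted p = 5.05e-05). Its treated levels overlapped between the lines. Cd81 rose to 4650 and 4173 and to 6381 and 5765, by 1.07 ± 0.15 (edgeR adjusted p = 0.000276) and 0.88 ± 0.14 (edgeR adjusted p = 0.000876). Inpp5f, which is outside these domains and whose imprinting depends on the isoform, also rose in both lines. It reached 2793 and 2689 and 2062 and 2437, a rise of 0.97 ± 0.16 (edgeR adjusted p = 0.000848) and 1.41 ± 0.16 (edgeR adjusted p = 0.000107).

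Kcnq1 had 5.1 and 7.3 normalized counts in untreated WT cells and 23.6 and 14.8 in treated ones, and 4.64 and 3.38 against 18.4 and 17.4 in Cfp1-/- cells. It rose by 1.66 ± 0.52 (edgeR adjusted p = 0.0255) and 2.17 ± 0.55 (edgeR adjusted p = 0.00886). The call in WT cells was lost with DESeq2 (adjusted p = 0.125) and without untreated WT replicate 1 or 2 or treated WT replicate 1 (1.30 to 1.90, edgeR adjusted p of 0.0628 to 0.155), and that in Cfp1-/- cells without untreated Cfp1-/- replicate 2 (1.94, edgeR adjusted p = 0.0718). Ascl2 rose by 1.80 ± 0.39 in Cfp1-/- cells (edgeR adjusted p = 0.00419) and was at 0.66 ± 0.42 in WT cells, which was not called. Nap1l4 fell by 0.39 ± 0.12 in WT cells (edgeR adjusted p = 0.0251), a call lost with library totals as the scale (-0.07) and without untreated WT replicate 1 or 2 or treated WT replicate 1 (-0.46 to -0.32, edgeR adjusted p of 0.0523 to 0.155). Igf2 and Tssc4 were called in neither line, at 0.43 ± 0.30 and 0.21 ± 0.18 in WT cells.

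**Figure D5:**
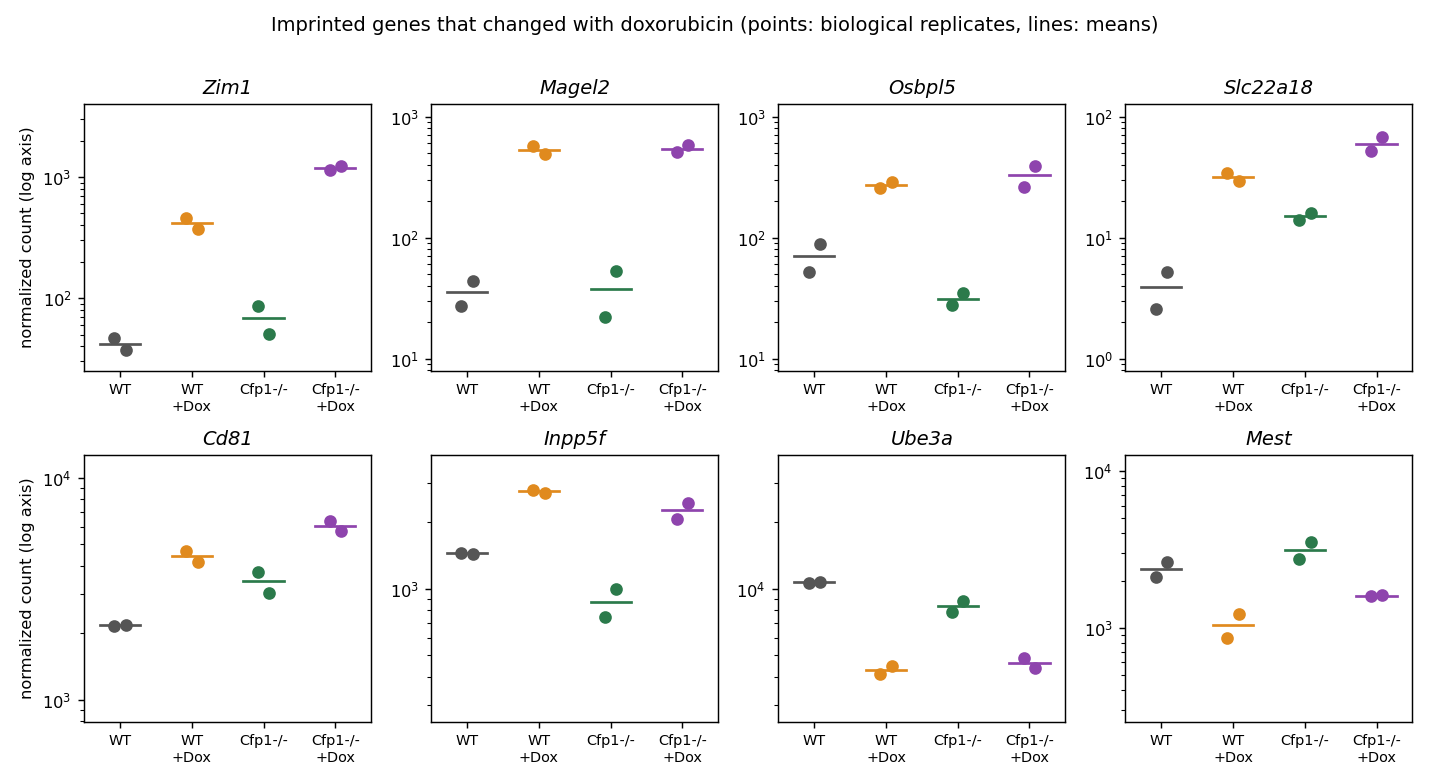
Normalized counts on log axes of 8 imprinted genes in the 4 groups, with a point for each of the 2 biological replicates and a line at their mean. Zim1, Magel2, Osbpl5, Slc22a18, Cd81 and Inpp5f rose and Ube3a and Mest fell in both lines, with no overlap between treated and untreated replicates of a line.

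Among genes on other chromosomes, Sfmbt2 fell by 3.11 ± 0.21 in WT cells (edgeR adjusted p = 7.61e-06) and dropped by 1.06 ± 0.21 in Cfp1-/- cells (edgeR adjusted p = 0.00263). Ppp1r9a fell from 3674 ± 114 (SD) to 1101 ± 293 normalized counts in WT cells (-1.69 ± 0.20, edgeR adjusted p = 0.000133) and from 2424 ± 239 to 1279 ± 230 in Cfp1-/- cells (-0.88 ± 0.20, edgeR adjusted p = 0.00502), the latter lost without treated Cfp1-/- replicate 2 (-0.70, edgeR adjusted p = 0.0511). Mest fell from 2372 ± 352 to 1039 ± 258 (-1.14 ± 0.20, edgeR adjusted p = 0.00114) and from 3141 ± 560 to 1599 ± 11.9 (-0.93 ± 0.19, edgeR adjusted p = 0.00339). Slc38a4 fell from 10735 ± 230 to 6754 ± 1612 in WT (-0.62 ± 0.18, edgeR adjusted p = 0.0188) and from 9761 ± 981 to 6639 ± 1077 in Cfp1-/- cells (-0.51 ± 0.18, edgeR adjusted p = 0.0413). The calls on Slc38a4 were lost with library totals as the scale (-0.31 and -0.30) and without replicate 1 of untreated or of treated WT cells (-0.60 and -0.40, edgeR adjusted p = 0.0669 and 0.123), or without any Cfp1-/- library but treated replicate 1 (edgeR adjusted p of 0.0565 to 0.244). In Cfp1-/- cells Igf2r rose by 0.42 ± 0.12 (edgeR adjusted p = 0.0159), lost without 3 of the 4 Cfp1-/- libraries, all but treated replicate 1 (0.32 to 0.41, edgeR adjusted p of 0.0679 to 0.107), and Dlk1 by 1.10 ± 0.41 (edgeR adjusted p = 0.0499), lost without any 1 of the 8 libraries (edgeR adjusted p of 0.0542 to 0.167).

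Whether the response itself differed between the lines was tested by the interaction term, and 1 of the 40 genes was called, Sfmbt2, against 0.114% of all genes called higher and 0.121% called lower. Its response was 2.05 ± 0.29 less negative in Cfp1-/- cells on the log2 scale (edgeR adjusted p = 0.0338), starting from 501 ± 71.5 (SD) normalized counts in untreated Cfp1-/- against 5737 ± 1469 in untreated WT cells. The call was lost without 7 of the 8 libraries, all but untreated WT replicate 1 (1.73 to 2.2, edgeR adjusted p of 0.0689 to 0.168). With the replicate number as a block Grb10, Sfmbt2 and Usp29 were called, with DESeq2 Sfmbt2 and Usp29, and 8 of the 40 had an unadjusted p under 0.05. For Usp29 the interaction was -2.45 ± 0.52 with an edgeR adjusted p of 0.125. For the other genes named as called in 1 line alone, a difference between the lines was not shown.

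Transcripts of genes that act on imprints or DNA methylation were examined in the same fit. Besides genes that maintain imprints, the list holds genes that set or remove methylation, such as Dnmt3a, Dnmt3b, Tet1 and Tet2. Of 22 such genes, 2 were higher and 8 lower in untreated Cfp1-/- cells (17.9% and 16.1% of all genes), with a median log2 fold change of -0.31. With doxorubicin 3 rose and 15 fell in WT cells (26.5% and 21.8% of all genes) and 2 rose and 14 fell in Cfp1-/- cells (27.8% and 21.0%). The 3 called genes with the largest change between the untreated lines were Dppa3, Zfp42 and Ctcfl. Dppa3, which protects maternal methylation in the zygote, had 725 and 869 normalized counts in WT and 2211 and 2316 in Cfp1-/- cells (1.53 ± 0.24, edgeR adjusted p = 0.00159). Zfp42, a zinc finger gene that also stands among the ES cell markers, had 15661 and 9967 against 5035 and 5077 (-1.31 ± 0.33, edgeR adjusted p = 0.0129). Ctcfl, a paralogue of the insulator protein CTCF, had 36.5 in both WT libraries against 72.3 and 82.8 (1.11 ± 0.29, edgeR adjusted p = 0.0167). Zfp445, a zinc finger protein that binds imprinted control regions, had 3172 and 3112 against 1704 and 1573 (-0.91 ± 0.14, edgeR adjusted p = 0.00128). Dnmt1, the maintenance DNA methyltransferase, had 14426 and 12918 against 9908 and 9895 normalized counts (-0.44 ± 0.12, edgeR adjusted p = 0.0225), and Uhrf1, which brings it to replicated DNA, 7800 and 7342 against 4106 and 4096 (-0.86 ± 0.15, edgeR adjusted p = 0.00275). Zfp57 was at 0.14 ± 0.42 between the untreated lines, which was not called, and with doxorubicin fell in both lines, at -2.15 ± 0.44 in WT cells (edgeR adjusted p = 0.00309) and -1.5 ± 0.43 in Cfp1-/- cells (edgeR adjusted p = 0.0167). Zfp445, Dnmt1, Uhrf1 and Zfp57 were chosen for their role after their values were seen. The part of these genes in the levels of imprinted genes was not tested.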

How the data were processed

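Libraries that keep strand were made by the authors from RNA without rRNA. STAR alignments (NCBIm37) were counted by HTSeq over Ensembl exons. Reads on overlapping genes of the same strand or shared between genes are left out. They deposited raw counts of 16 technical replicates and, as a signal, normalized counts of 8 biological replicates, which are the counts of both technical replicates together over DESeq's size factor. Neither table holds fold changes or p-values. Technical replicates were summed and tested with edgeR 4.0.16 (R 4.3.3) with filterByExpr, TMM, 4 group coefficients and glmQLFTest. Relative to the chromosome, its median log2 fold change was an offset on the Cfp1-/- libraries. SE is the log2 fold change divided by the root of F. The scripts were tested on simulated data. Members are named with values where called in a comparison or where their mean is 200 normalized counts or more, others by raw counts. From other lists the 3 called genes with the largest change between untreated lines are named. Members and lists were chosen with earlier results of these data known. Samples of equal replicate number deviated together (correlations of 0.164 to 0.61 over 10297 genes in 6 pairs of groups), but the sources do not say what a number shares and there are 2 pairs a comparison, so no block was used. Alternatives were DESeq2 1.42.0, its size factors, library totals, no filter, a replicate block, further limits on fold and mean, groups fitted alone, 1 run left out, a 5 Mb offset and each library left out. Intervals cover counting error only. Fewer cells of a type and less RNA per cell cannot be told apart in bulk samples.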

Additional observations from a re-analysis of the deposited data

Results flagged for a closer look

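The response of Sfmbt2 to doxorubicin differed between the lines by the interaction term, by 2.05 on the log2 scale (edgeR adjusted p = 0.0338). It fell by 3.11 in WT cells and dropped by 1.06 in Cfp1-/- cells, where its level without treatment was at -3.49 against WT cells. The call was lost without 7 of the 8 libraries (edgeR adjusted p of 0.0689 to 0.168), and with DESeq2 Usp29 passed as well.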

How the results depend on the processing

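None of the 105 named member results changed sign. Under alternatives other than leaving out a library, 709 of 734 values kept their call, and with a library left out 707 of 840 did. Calls kept in every alternative and with each library left out numbered 14 of 19 for doxorubicin in WT cells, 12 of 21 in Cfp1-/- cells, 0 of 1 for the response difference, and 13 of 19 and 9 of 19 for Cfp1-/- against WT cells without and with doxorubicin. With further limits of 2.5-fold or more and a mean level of 200 normalized counts or more, the counts of members called were 4 and 3 for doxorubicin in WT and Cfp1-/- cells, 6 and 6 between the lines and 5 and 5 relative to the chromosome, since fewer genes can pass. Library totals as the scale ended the calls on Mkrn3, Nap1l4, Peg12 and Slc38a4 for doxorubicin in WT cells, on Snrpn and Slc38a4 in Cfp1-/- cells, on Osbpl5 and Ppp1r9a between the untreated lines and on Gnas between the treated lines. Fitting the compared groups alone ended those on Peg12, Osbpl5, Cd81, Nap1l4 and, relative to the chromosome, Ndn, no filter those on Dlk1 and Nap1l4, and DESeq2's size factors those on Dlk1, Nap1l4 and Snrpn. DESeq2 itself ended those on Dlk1, Kcnq1, Nap1l4 and Nap1l5, and leaving out the second run those on Dlk1 and Nap1l5. With 1 library left out, the count ranged from 13 to 20 for doxorubicin in Cfp1-/- cells, from 0 to 1 for the response difference, from 11 to 18 between the treated lines and from 7 to 12 relative to the chromosome, where the lone sample of a group is assumed to vary like the others. The response difference gave 2 members with no filter on low counts and 2 with DESeq2. With the replicate number as a block it gave 3, 18 members were called between the treated lines relative to their chromosome, and no other count of members moved by over 1.5 times. The block lost no call and gave 24 in place of 19 between the untreated lines (adding Impact, Mest, Phlda2, Ube3a and Zim1), 21 in place of 19 between the treated lines (Phlda2 and Zrsr1), 23 in place of 19 for doxorubicin in WT cells (Copg2, Grb10, Impact and Zrsr1) and 23 in place of 21 in Cfp1-/- cells (Asb4 and Nnat). The median of chromosome 7 without treatment was 0.50 with DESeq2's size factors or its Wald test, 0.72 with library totals, 0.48 with no filter and 0.51 to 0.55 with a library left out. With doxorubicin it was 0.56 with totals and 0.44 to 0.50 with a library left out. That of chromosome 11 without treatment was 0.49 with DESeq2's size factors or its Wald test, 0.70 with totals and 0.48 to 0.56 with a library left out, and with doxorubicin it was 0.49, 0.60 and 0.45 to 0.55, and 0.48 without the second run of replicate 1 of treated Cfp1-/- cells. DESeq2 was not run relative to the chromosome. The causes of these shifts were not tested. Genes with few reads in WT cells, such as Th, Slc22a18 and Nap1l5, have fold changes limited by depth.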

Other observations

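Of 44 further imprinted genes that do not belong to the set above, 32 were in the tables and 26 could be tested, and the others were not analysed here. In untreated Cfp1-/- cells 4 of the 26 were higher and 8 lower (17.9% and 16.1% of all genes), with a median log2 fold change of -0.32. With doxorubicin 4 rose and 5 fell in WT cells (26.5% and 21.8% of all genes) and 7 rose and 3 fell in Cfp1-/- cells (27.8% and 21.0%). The 3 with the largest change between the untreated lines were Art5, Ddc and Qpct. Art5, an ADP-ribosyltransferase gene of chromosome 7, had 6.8 and 6.25 normalized counts in WT and 56.6 and 102 in Cfp1-/- cells (3.60 ± 0.42, edgeR adjusted p = 0.000353). Ddc, the gene of DOPA decarboxylase next to Grb10 on chromosome 11, had 403 and 245 against 1901 and 2475 (2.78 ± 0.25, edgeR adjusted p = 0.000109), the direction opposite to Grb10. Qpct, a glutaminyl cyclase gene of chromosome 17, had 31.4 and 26.1 against 175 and 161 (2.57 ± 0.29, edgeR adjusted p = 0.000326).

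Reads shared with similar genes are not counted, so the nearest relatives of some members were looked up. Snrpb, related to Snrpn, Zrsr2, related to Zrsr1, and Frat2, related to Peg12, were not called between the untreated lines, at -0.13 ± 0.17, 0.12 ± 0.18 and -0.19 ± 0.30. Nap1l1, related to Nap1l5, was lower, at -0.78 ± 0.15 (edgeR adjusted p = 0.00411), and Mkrn1, related to Mkrn3, was at -0.90 ± 0.22 (edgeR adjusted p = 0.0117).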
